A study of Mus musculus with 90 samples.

Results

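Naive YUMM2.1 cells, a mouse melanoma line that had not met interferon-gamma (IFNγ) before, were compared after 2 h of IFNγ and without it, to find which single genes had moved by then. The comparison rests on 6 of the 90 libraries of the series, chosen by their labels alone: 3 libraries of cells given 50 IU/mL IFNγ for 2 h at week 0, and 3 control libraries of cells given BSA (0 IU/mL) at week 0. Both groups were the same line in the same medium, plated 48 h before harvest, and the labels name no allele or agent other than BSA and IFNγ. RNA of triplicate experiments was measured by 3′ digital gene expression, which counts sequence tags from the 3′ ends of transcripts. The labels do not say how far the 3 experiments of a group were separate cultures, so the p-values measure the spread between libraries. That spread was estimated within the groups of all YUMM2.1 libraries of the series, not from these 6 alone. The series also holds naive YUMM2.1 cells given IFNγ for 24 h, CT26 colon carcinoma cells treated in the same way, and cultures of both lines kept for 1 to 3 weeks with or without IFNγ and rechallenged.

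IFNγ binds a receptor of the Ifngr1 and Ifngr2 chains, and the kinases Jak1 and Jak2 then activate transcription factors that bind GAS elements in promoters. They switch on early genes, among them Irf1, a transcription factor that binds the related ISRE element and drives further targets. The products of these genes include GTPases that attack pathogen compartments, chemokines that draw in T cells, and the machinery that presents peptides on MHC class I.

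By 2 h the response was small in number and ran in 1 direction. Of 9589 genes tested, 23 were higher and 0 were lower at an adjusted p below 0.05 (quasi-likelihood test of edgeR, Benjamini-Hochberg adjusted), which is 0.24% of the genes tested. At an unadjusted p below 0.05 there were 203 genes higher and 145 lower, and DESeq2 called 1 gene lower (Gm10275). The 23 genes called higher included Irf1, the immunity-related GTPases Irgm1, Irgm2, Igtp, Iigp1, Ifi47, Gm4951 and Gm12250, the guanylate-binding proteins Gbp2, Gbp3, Gbp4, Gbp6 and Gbp7, the chemokine Cxcl10, the antiviral genes Ifit3 and Rtp4, and Gm4841, Gm12185, Samd9l, Snx10, Insl6 and Tut4. In each of the 23, all 3 libraries at 2 h lay above all 3 controls, as they did in 4.89% of all genes tested, while in 4.41% they all lay below. The median log2 fold change of all genes tested was 0.0072.

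**Figure D1:**
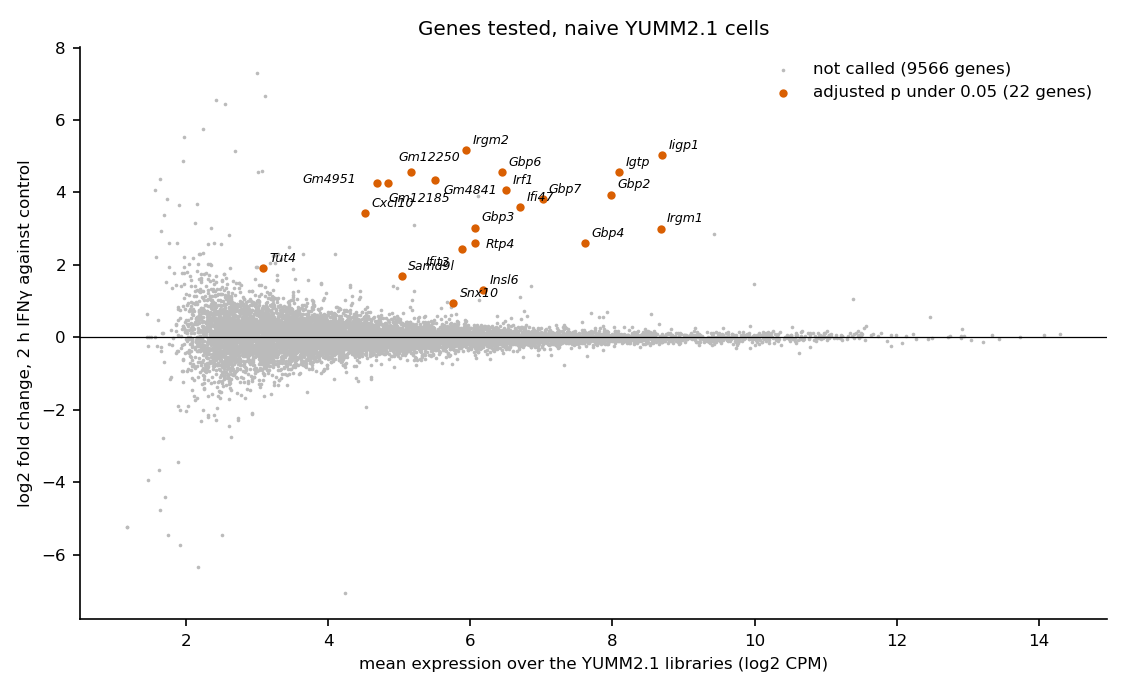
Each point is 1 gene tested in naive YUMM2.1 cells, with its mean expression over the YUMM2.1 libraries (log2 CPM, x axis) and its log2 fold change at 2 h of IFNγ against control (y axis). The 22 genes shown with an adjusted p below 0.05 (orange) all lie above 0, and the scatter of the other genes (grey) widens towards low expression.

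The libraries differed in depth. Total counts were 812316 to 1867497 in the control libraries and 1338990 to 2370771 at 2 h, with 12611 to 15230 genes detected per library and 5.16% to 6.87% of counts on mitochondrial transcripts. Tested genes were put in 3 equal tiers by mean expression over all YUMM2.1 libraries. Of the 23 genes, 18 lay in the highest tier, where the median standard error of a log2 fold change was 0.17, 4 in the middle tier (0.33) and 1 in the lowest (0.57). That mean includes libraries given IFNγ, so the tier of a called gene partly reflects its own rise. The tier counts thus do not show how far depth limited the calls. Of 20 melanocyte and neural crest markers 8 were tested and 12 were not, and 7 had 0 counts in the 6 libraries. The neural crest markers Sox10, S100b, Ngfr, Gpnmb, Pax3, Mcam and Cdh19 were expressed in the line. Sox9, of the same list, had 1 count over the controls and 5 at 2 h. The pigment genes Tyr, Tyrp1, Mlana, Pmel, Dct and Mitf had too few counts to be tested. Immune and epithelial marker lists summed to at most 8.55 CPM (counts per 1000000 counts of the library, with totals scaled as given below) in any of the 6 libraries. The 10 endothelial and fibroblast markers summed to 319.9 to 373.3 CPM in the controls and 377.4 to 431.4 CPM at 2 h, nearly all of it Pecam1, an adhesion molecule of endothelial cells. Pecam1 itself stood at 340.4, 308.9 and 364.9 CPM and then at 419.8, 363.5 and 362.9 CPM, which overlap (log2 fold change 0.17, adjusted p = 1). The endothelial markers Kdr and Tek had 0 counts in all 6 libraries and Cdh5 had 1 count in all, and the part of these markers in the results was not tested.

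Irf1, which passes the signal on to further genes, was among the strongest responders. It stood at 10.4, 7.33 and 8.37 CPM in the controls and at 177, 121 and 157 CPM at 2 h. The groups were far apart, with a log2 fold change at 4.07 (standard error 0.21, adjusted p = 2.21e-19). Of the IRF and related factors that did not pass, named here after their values were seen, Irf9, a DNA-binding factor of the type I interferon pathway, had a log2 fold change of 0.33 (95% confidence interval 0.00 to 0.67, adjusted p = 1). Stat2 had 0, 0 and 6 counts in the controls and 19, 12 and 11 at 2 h and did not pass (adjusted p = 0.174). Its only control counts were in replicate 3, and without that library it passed (log2 fold change 6.72, adjusted p = 0.00400), as it did with no filter on low counts (0.0214) and against the mean of the controls of all 4 weeks (0.0336). Nlrc5, the activator of MHC class I genes, had 1 count over the controls and 6 at 2 h, a ratio of counts per total of 5.08 with an exact 95% interval of 0.617 to 234, and Ciita, the activator of MHC class II genes, had 0 counts in all 6 libraries.

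The receptor and kinases did not pass. Ifngr1 had a log2 fold change of 0.42 (95% confidence interval -0.057 to 0.90), Ifngr2 of -0.44 (-1.59 to 0.71), Jak1 of 0.19 (-0.40 to 0.78) and Jak2 of 0.81 (-0.34 to 1.97). The interval of Jak2 reaches beyond the log2 fold changes of the called genes Snx10, Insl6 and Samd9l given below, and so leaves room for a change of that size. None of the 15 tested feedback inhibitors was called either (median 0.17). Socs1, a suppressor of JAK kinases, had 14, 5 and 5 counts in the controls and 29, 16 and 17 at 2 h. The library totals differed, and its log2 fold change was 1.12 (standard error 0.43, adjusted p = 1). The feedback inhibitor Usp18 had 0 counts in the controls and 1 at 2 h, which is at the floor.

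The immunity-related GTPases, which attack the membranes around intracellular pathogens, held the largest number of called genes. Of 12 tested members of the list 7 were higher (58.3%, against 0.24% of all genes tested) and 0 lower, with a median log2 fold change of 3.36. This list and the others were written with earlier results of these data known, which can raise such shares. Irgm1, a regulatory member of the family, was already well expressed, at 51.8, 57.4 and 59.2 CPM in the controls, and rose to 525, 401 and 419 CPM. Its change of 3.01 on the log2 scale had the lowest adjusted p of all genes (standard error 0.15, adjusted p = 4.59e-20). Igtp, another regulatory member, stood at 9.82, 3.66 and 5.15 CPM in the controls and at 176, 165 and 146 CPM at 2 h (log2 fold change 4.56, standard error 0.26, adjusted p = 2.04e-18). Irgm2 rose from 0, 4.88 and 1.93 CPM to 68.5, 65.8 and 55.6 CPM (log2 fold change 5.17, standard error 0.34, adjusted p = 5.07e-16), the largest fitted change among the 23. Iigp1, an effector member, rose from 1.64, 4.88 and 1.29 CPM to 65.8, 86.3 and 69.0 CPM (log2 fold change 5.04, standard error 0.33, adjusted p = 4.90e-16). In none of these 4 genes did a 2 h library come near a control. Ifi47 moved by 3.60 on the log2 scale (standard error 0.35, adjusted p = 1.58e-10).

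The remaining called members of the family were nearly silent in the controls, so their fold is known only within wide limits. Gm12250 is annotated as a processed pseudogene by GENCODE M21, where it starts at chr11:58187739. The RefSeq promoter searched below lies apart from that start, at chr11:58183593-58183892, so the annotations differ. Gm12250 had 0, 1 and 0 counts in the controls and 20, 9 and 9 at 2 h. The ratio of its counts per total was 32.2, with an exact 95% interval of 5.44 to 1305 that covers counting error only. Gm4951 had 1 count over the controls and 30 at 2 h (ratio 25.4, interval 4.23 to 1037). Gm4841, its neighbour in the genome and outside the list, had 2 counts over the controls and 56 at 2 h (ratio 23.7, interval 6.27 to 201). The adjusted p was 0.00025 for Gm12250 and Gm4841 and 0.0175 for Gm4951. Gm4951 was no longer called when any of the 3 controls (adjusted p of 0.334, 0.0891 and 0.0507) or the 2 h replicate 3 (0.107) was left out, or with DESeq2 (0.111). Fitted on the 2 groups alone, Gm12250 and Gm4951 did not pass the filter on low counts and were not tested.

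The 5 tested members of the list that were not called included the abundant pair Tgtp1 and Tgtp2, near-identical GTPase genes between which reads can be split. Tgtp1 had 51, 0 and 0 counts in the controls and 63, 178 and 141 at 2 h, and Tgtp2 had 11, 30 and 59 and then 271, 27 and 77. The libraries of 1 group thus disagreed within each gene, and the standard errors were 0.89 and 0.64 around log2 fold changes of 2.85 and 1.48 (adjusted p = 0.493 and 1). In both groups the library with the most Tgtp1 counts had the fewest Tgtp2 counts. The tests of the single genes with the filter therefore do not show whether the pair rose as a whole. With no filter on low counts both Tgtp1 and Tgtp2 were called higher (log2 fold change 2.86 and 1.49, adjusted p = 5.48e-40 and 6.39e-13). The summed counts of the pair were not tested. Gm12185, which overlaps Tgtp1 in the annotation, had 1 count over the controls and 29 at 2 h (ratio 24.6, interval 4.08 to 1004, adjusted p = 0.0131). It was not called without control replicate 1 (0.317), control replicate 3 (0.224) or 2 h replicate 2 (0.204), or with DESeq2 (0.109), and was not tested when the 2 groups were fitted alone. Irgm2 and Igtp also overlap each other on the same strand, so the division of their reads is uncertain.

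Guanylate-binding proteins, large GTPases that coat and break pathogen compartments, held the next largest number of called genes. Of 9 tested members 5 were higher (55.6%, against 0.24% of all genes tested) and 0 lower, with a median log2 fold change of 2.61. Gbp2 stood at 3.82, 7.33 and 5.79 CPM in the controls and at 89.8, 74.6 and 80.1 CPM at 2 h (log2 fold change 3.94, standard error 0.23, adjusted p = 3.94e-18). Gbp7 stood at 4.91, 3.66 and 4.50 CPM and then at 64.5, 60.7 and 69.0 CPM (log2 fold change 3.82, standard error 0.25, adjusted p = 5.80e-16). Replicates of both genes kept close to each other at 2 h. Gbp6 had a log2 fold change of 4.56, Gbp3 of 3.03 and Gbp4 of 2.61, with adjusted p of 2.52e-08, 2.41e-06 and 0.000389. Gbp9 had 6, 8 and 7 counts in the controls and 19, 10 and 8 at 2 h and was not called (log2 fold change 0.53, 95% confidence interval -0.44 to 1.49). Gbp8, Gbp10 and Gbp11 had at most 4 counts in any of the 6 libraries. Gbp6 shares its locus with Gm43302, and Gbp4 with Gbp8 and Gbp9, so that counts of these genes are uncertain where reads fit more than 1 of them.

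**Figure D2:**
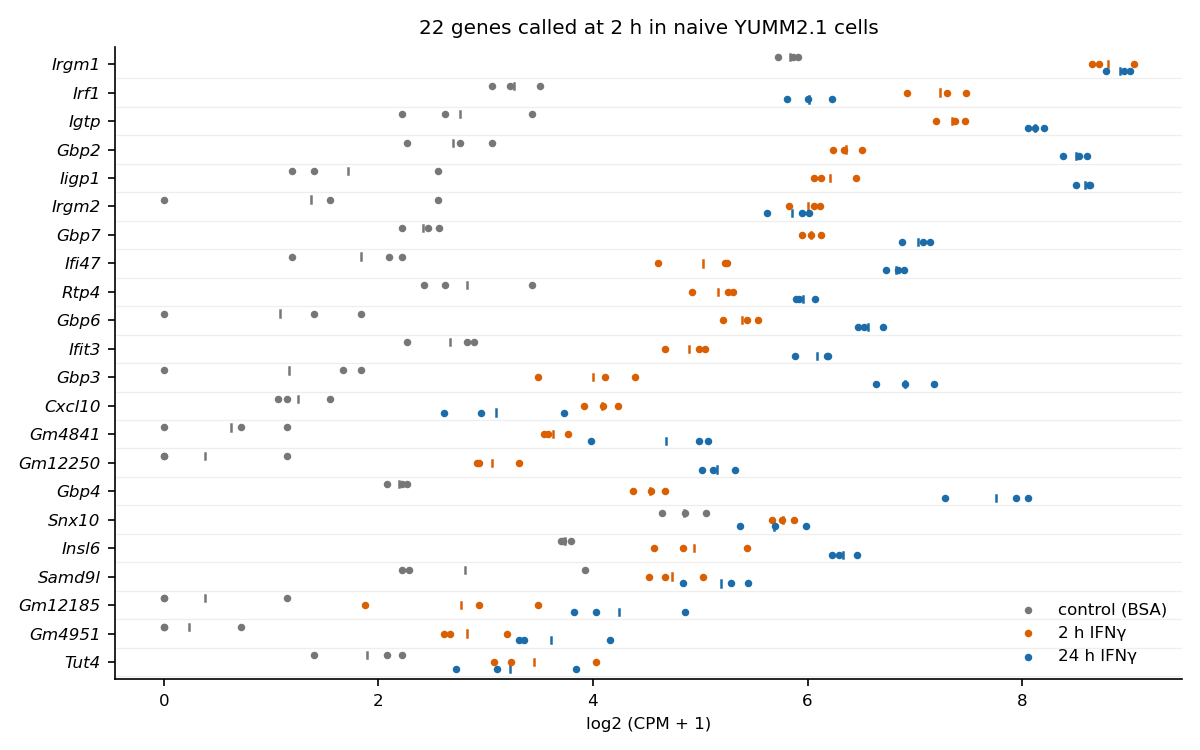
Levels of 22 of the 23 genes called at 2 h in naive YUMM2.1 cells, ordered by adjusted p, with log2 (CPM + 1) on the x axis. Points are single libraries, 3 for the control (grey), 3 for 2 h (orange) and 3 for 24 h of IFNγ (blue), and short bars are their means. In every gene the orange points lie to the right of the grey ones, and the blue points of Irf1 lie to the left of its orange points.

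Called genes of both GTPase families sit side by side in the genome. With genes less than 1000000 bases apart taken as neighbours, 14 of the 23 fell into 5 clusters (GRCm38, GENCODE M21). Irgm1, Gm12185 and Ifi47 lie in chr11:48861968-49096974, and Gm12250, Igtp and Irgm2 in chr11:58187739-58222782. Gbp7, Gbp3 and Gbp2 lie in chr3:142530342-142638008, and Gbp4 and Gbp6 in chr5:105115767-105293698. Gm4951, Gm4841 and Iigp1 form the remaining one. All 3 tested genes were called in the second of these intervals and in that on chromosome 3. In the first, 3 of 6 tested genes were not called, on chromosome 5 it was 4 of 6, and in the remaining cluster 1 of 4.

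Promoters of these genes are shown because several hold the elements through which interferons are known to act. RefSeq (GRCm38.p6) gave a promoter, 250 bases before to 50 after the start, for 15 of the 23 genes. The letters TTCNNNGAA (GAS, which reads the same on both strands) and GAAA, any 2 bases and GAAA again (ISRE, either strand) were searched. A GAS match was present in 6 of the 15 genes (40%), against 9.55% of the 27025 genes with a promoter, and an ISRE match in 11 (73.3%), against 3.99%. Either was found in 12 of the 15 (80%), against 12.9% of all genes. Ifi47, Samd9l and Tut4 had neither in these windows. In Irf1 the GAS match began 90 bases before the start (chr11:53769906-53769950, plus strand, shown with its surroundings and the match in capitals).
Irf1: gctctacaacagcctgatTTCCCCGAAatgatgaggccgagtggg

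In 3 GTPase genes a GAS match was followed by an ISRE match that began 11 bases further on: Igtp (chr11:58199493-58199549, plus strand), Irgm2 (chr11:58214884-58214940, plus strand) and Gm12185 (chr11:48927230-48927286, minus strand). They are printed together because their surroundings are also alike, with both matches in capitals. A GAS and an ISRE match that began within 20 bases of each other, in either order, were found in 4 of the 15 genes, Gm12250 being the other one. The same was found in 0.152% of all genes with a promoter.
Igtp: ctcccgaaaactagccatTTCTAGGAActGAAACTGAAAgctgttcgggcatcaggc
Irgm2: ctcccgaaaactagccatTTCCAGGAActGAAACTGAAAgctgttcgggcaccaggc
Gm12185: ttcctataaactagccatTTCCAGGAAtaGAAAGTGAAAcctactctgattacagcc

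Irgm1, Gbp2 and Cxcl10 had ISRE matches without a GAS match, which lay 30 and 24 bases before the start in Irgm1 (chr11:48871421-48871468, minus strand, the matches overlapping), 59 in Gbp2 (chr3:142620586-142620631, plus strand) and 213 in Cxcl10 (chr5:92349075-92349120, minus strand). Gbp7 had 2 GAS matches and an ISRE match (chr3:142530212-142530310, plus strand). They are printed as examples of the other layouts among the called genes, with matches in capitals. A match is only a string of letters, and binding was not measured.
Irgm1: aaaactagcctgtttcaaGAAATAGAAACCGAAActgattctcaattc
Gbp2: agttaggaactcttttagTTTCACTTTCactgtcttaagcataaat
Cxcl10: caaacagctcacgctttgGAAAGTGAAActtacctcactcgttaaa
Gbp7: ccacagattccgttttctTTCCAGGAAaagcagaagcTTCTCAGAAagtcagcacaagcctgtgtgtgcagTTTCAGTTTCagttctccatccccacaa

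Cxcl10, the chemokine that attracts T cells through the receptor Cxcr3, was the only called gene of 10 tested chemokines and cytokines (10%, against 0.24% of all genes tested). It stood at 1.09, 1.22 and 1.93 CPM in the controls and at 17.8, 16.1 and 14.1 CPM at 2 h (log2 fold change 3.43, standard error 0.52, adjusted p = 2.90e-05). Its partner Cxcl9 had 1 count in the 6 libraries. Ccl2, an abundant chemokine for monocytes, stood at 397 to 492 CPM in the controls and 456 to 550 CPM at 2 h, which overlap. Csf1, the macrophage growth factor, had 20, 13 and 15 counts and then 52, 65 and 29 (log2 fold change 1.38, standard error 0.38, adjusted p = 0.238).

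Of 36 tested antiviral effectors and sensors 2 were higher (5.56%, against 0.24% of all genes tested) and 0 lower, and their median log2 fold change was 0.28. Rtp4 stood at 4.36, 9.77 and 5.15 CPM in the controls and at 37.4, 29.3 and 38.6 CPM at 2 h (log2 fold change 2.59, standard error 0.27, adjusted p = 2.13e-09). Ifit3, a member of the family that binds viral RNA, stood at 3.82, 6.10 and 6.44 CPM and then at 24.5, 30.7 and 31.9 CPM (log2 fold change 2.43, standard error 0.31, adjusted p = 4.18e-07). Its relative Ifit2 did not pass (log2 fold change 0.08, 95% confidence interval -0.56 to 0.72). Trim21, a ubiquitin ligase and antibody receptor of the cytosol, had 0 counts in all controls and 13, 2 and 7 at 2 h. With a floor of 3 counts set for the control group, its ratio of counts per total was 6.21, which is not a lower confidence limit. Trim21 missed the threshold (adjusted p = 0.0505), passing it without 2 h replicate 2 (0.0231). It also passed with no filter on low counts (0.0120) and against the mean of the controls of all 4 weeks (0.000138).

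Samd9l, Snx10, Insl6 and Tut4 were called but in no list. Samd9l, a growth-restricting interferon-stimulated gene, stood at 14.2, 3.66 and 3.86 CPM in the controls and at 31.6, 21.9 and 24.5 CPM at 2 h (log2 fold change 1.70, standard error 0.36, adjusted p = 0.0102). Snx10, a sorting nexin of endosomes, stood at 24.0, 28.1 and 32.2 CPM and then at 57.8, 53.4 and 49.7 CPM (log2 fold change 0.94, standard error 0.18, adjusted p = 0.00273), the smallest change among the 23. Insl6, a relaxin-family peptide gene, stood at 12.0, 12.2 and 12.9 CPM and then at 27.6, 22.7 and 42.3 CPM (log2 fold change 1.30, standard error 0.27, adjusted p = 0.00837). Insl6 (chr19:29321344-29325356, minus strand) lies between Jak2 and Cd274 (chr19:29367455-29388095, plus strand). Tut4, an enzyme that adds uridines to RNA, had 3, 3 and 5 counts in the controls and 19, 21 and 10 at 2 h (log2 fold change 1.92, standard error 0.43, adjusted p = 0.0250). These 4 calls were lost when only the 2 groups were fitted (adjusted p of 0.248, 0.0669, 0.151 and 0.497 in the order given) and when certain single libraries were left out. These libraries were control replicates 2 and 3 and 2 h replicate 1 for Samd9l (0.115, 0.392 and 0.170), control replicate 1 and 2 h replicate 1 for Snx10 (0.179 and 0.0547), control replicates 1 and 3 and 2 h replicate 3 for Insl6 (0.172, 0.0566 and 0.279), and any control (0.517, 0.053 and 0.102) and 2 h replicate 2 (0.467) for Tut4. Tut4 was also not called with DESeq2 (adjusted p = 0.162).

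Parp14 and Cd274 were among the 5 genes with the lowest p that did not pass. Parp14, an ADP-ribosyltransferase, stood at 1.64, 1.22 and 1.93 CPM in the controls and at 7.56, 9.51 and 8.90 CPM at 2 h (log2 fold change 2.31, standard error 0.57, adjusted p = 0.0683). Cd274, which encodes the checkpoint ligand PD-L1, stood at 1.09, 2.44 and 1.93 CPM and then at 8.01, 8.05 and 8.90 CPM (log2 fold change 2.25, standard error 0.58, adjusted p = 0.132). The groups did not overlap in either gene, and both passed when the controls of all 4 weeks were averaged (adjusted p = 5.22e-06 and 1.07e-06). Parp14 also passed with no filter on low counts (adjusted p = 0.0352). None of the 7 tested interferon-induced PARP genes with Dtx3l (median 0.46) and none of the 10 tested checkpoint and lymphocyte ligands (median 0.05) was called. Beside them and Trim21, the genes nearest to the threshold were Gm11808 (adjusted p = 0.0537), which passed without control replicate 3 (0.0112) or 2 h replicate 1 (0.0158), and Gm20559 (0.167). Gm11808 also passed with no filter (1.20e-13) and with the replicate number as a block (0.0382).

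Antigen presentation genes were not called at 2 h. Of 20 tested genes of MHC class I, peptide loading and the immunoproteasome 0 were called, with a median log2 fold change of 0.41. B2m, the light chain of MHC class I, stood at 859, 610 and 877 CPM in the controls and at 963, 763 and 835 CPM at 2 h (log2 fold change 0.12, 95% confidence interval -0.21 to 0.45). Psmb10, a catalytic subunit of the immunoproteasome, stood at 43.1, 53.7 and 64.4 CPM and then at 76.9, 73.9 and 86.8 CPM. Its groups did not overlap, but the log2 fold change of 0.56 missed the threshold (95% confidence interval 0.25 to 0.88, adjusted p = 0.241). The other catalytic subunits, Psmb8 and Psmb9, had at most 5 counts in any of the 6 libraries. No gene was called among 4 tested of MHC class II, 20 immediate-early genes, 11 NF-kB subunits and targets, 18 heat shock and stress genes, 13 mitochondrially encoded transcripts or 8 neural crest markers. Their median log2 fold changes were -0.70, 0.06, 0.04, -0.0035, 0.15 and -0.02. The value for MHC class II rests on genes near the floor, as only 1 of the 10 list members had 10 or more counts over the 6 libraries. Klf6, an immediate-early zinc finger factor, had the groups apart, at 67.2 to 80.7 CPM and 91.3 to 106 CPM, with a log2 fold change of 0.39 (95% confidence interval 0.086 to 0.70, adjusted p = 1).

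**Figure D3:**
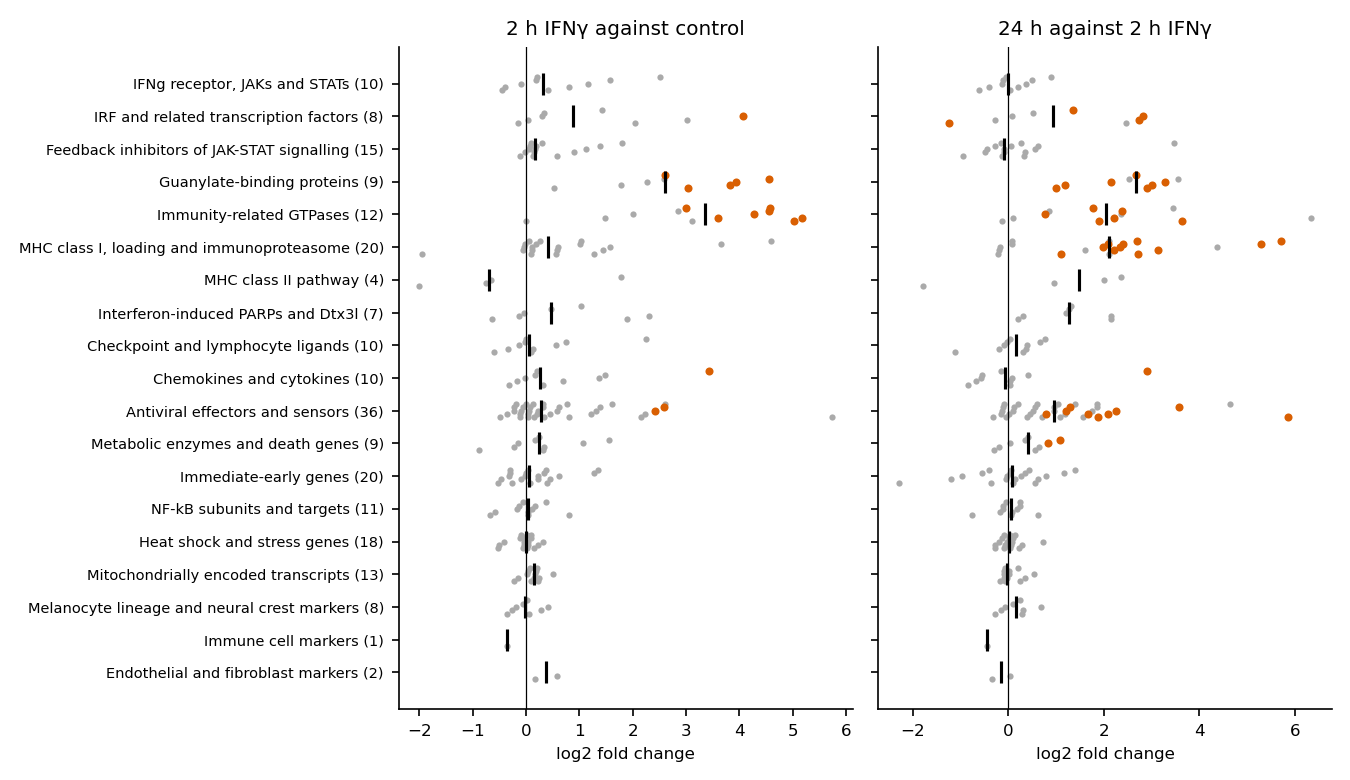
Log2 fold changes of tested members of each gene list (number shown in parentheses) at 2 h of IFNγ against control (left) and at 24 h against 2 h (right) in naive YUMM2.1 cells. Orange points passed an adjusted p of 0.05, grey points did not, and black bars are medians of the members shown. On the left the orange points lie mainly in the 2 GTPase lists, while on the right MHC class I genes and antiviral effectors hold 11 and 9 of them.

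Naive cells collected 24 h after IFNγ show which genes differed from their 2 h level. Against 2 h, 53 genes were higher (0.553% of genes tested) and 1 was lower (0.0104%). Against the control libraries, which the 2 h comparison also uses, 82 were higher (0.855%) and 3 lower (0.0313%) at 24 h. Of the 23 genes called at 2 h, 13 rose further, Irf1 fell and 9 did not pass in either direction. Gbp2 went on to 333, 368 and 387 CPM at 24 h, 2.15 beyond 2 h on the log2 scale (standard error 0.14, adjusted p = 1.13e-16), and Gbp4 to 265, 245 and 154 CPM (3.29, standard error 0.25, adjusted p = 3.14e-14). Irf1 fell to 55.1, 73.8 and 63.2 CPM, below all its 2 h libraries and above all controls, by 1.25 on the log2 scale (standard error 0.16, adjusted p = 3.54e-07). Cxcl10 stood at 6.74, 5.12 and 12.3 CPM, also below its 2 h libraries, but did not pass (log2 fold change -0.84, standard error 0.37, adjusted p = 0.899). Irgm1 at 439, 492 and 512 CPM and Irgm2 at 60.7, 48.2 and 63.6 CPM overlapped their 2 h levels (log2 fold changes of 0.10 and -0.13).

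The other 40 of the 54 genes had not been called at 2 h, and 11 of the antigen presentation list were among them. A GAS or ISRE match was present in 12 of the 29 of these 40 genes with a promoter entry (41.4%), or 8 (27.6%) when the 250 bases before the start alone were searched, where the genes called at 2 h stayed at 12 of 15. Psme2, a proteasome activator subunit, stood at 220, 239 and 248 CPM in the controls, 279, 246 and 323 at 2 h and 1201, 1465 and 1286 at 24 h (log2 fold change against 2 h 2.22, standard error 0.12, adjusted p = 1.33e-18). Psmb9 moved from 0.445, 2.93 and 3.71 CPM at 2 h to 70.8, 91.2 and 85.2 CPM at 24 h, and the nucleic acid sensor Zbp1 from 1.33, 0.732 and 0.742 CPM to 58.4, 73.8 and 56.8 CPM. For both, the libraries of the controls and of 2 h held at most 5 counts. Of the 20 MHC class I list genes 11 were higher at 24 h than at 2 h, with a list median of 2.12, where 0.553% of all genes tested were higher. Bst2, Ifitm3, H2-T22 and Psmb10 were also among the 10 genes with the lowest adjusted p. Parp14 (log2 fold change 0.21) and Cd274 (-1.11) did not pass between 2 h and 24 h (adjusted p = 1 and 0.936).

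**Figure D4:**
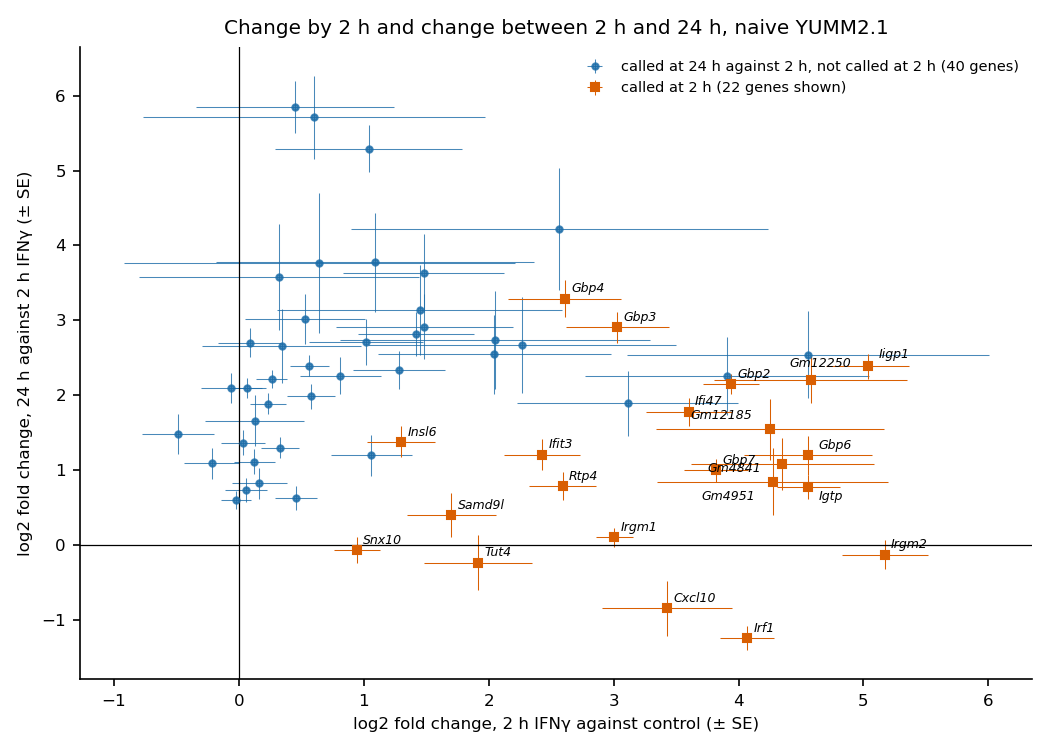
Log2 fold change at 2 h of IFNγ against control (x axis) and at 24 h against 2 h (y axis) in naive YUMM2.1 cells, with standard errors as lines. Orange squares are 22 of the 23 genes called at 2 h, and blue points are the 40 genes called only between 2 h and 24 h. Irf1 is the orange square furthest below 0, and the 2 axes share the 2 h libraries, so that chance error at 2 h enters them with opposite signs.

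Across the 15 groups of YUMM2.1 libraries, the naive 2 h level was the highest in none of the 23 genes. The highest mean was in a group rechallenged after 1 to 3 weeks of IFNγ in each, at 2 h of rechallenge in 12 genes and at 24 h in 11. By mean level, naive 2 h cells held rank 2 of the 15 groups for Tut4, rank 4 for Irf1 and rank 6 for Cxcl10, Irgm2 and Snx10. Irf1 stood at 151 ± 28.3 CPM in naive 2 h cells, 251 ± 17.2 at 2 h after 1 week and 217 ± 1.14 at 2 h after 3 weeks (SD, n = 3 each). Cxcl10, at 14.1 to 17.8 CPM in naive 2 h cells, stood at 79.4 ± 10.8 at 2 h after 3 weeks (SD, n = 3). Tut4 stood at 10.4 ± 4.32 CPM in naive 2 h cells and at 11.3 ± 0.594 at 2 h after 3 weeks, and its controls moved from 2.84 ± 1.06 at week 0 to 7.48 ± 1.58 at 1 week (SD, n = 3 each).

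The same 2 h exposure was made in naive CT26 cells, where 20 of 8516 genes were higher (0.235%) and 0 lower in edgeR's test (138 lower at an unadjusted p below 0.05, 1 lower with DESeq2). Of the 23 genes 21 were tested in CT26 and 12 were called there, among them Irf1, Irgm1, Irgm2, Igtp, Iigp1, Ifi47, Gm4951, Gbp2, Gbp3, Gbp7 and Rtp4. Of the 20 genes called in CT26, 19 were tested in YUMM2.1, and the same 12 were called. Trim21 was called in CT26 (log2 fold change 2.70, standard error 0.48, adjusted p = 0.000733) and lay just above the threshold in YUMM2.1. The difference between the lines was tested for 10339 genes in a fit of all 90 libraries, and 0 genes (0%) passed edgeR's test (365 at an unadjusted p below 0.05, smallest adjusted p = 1.00). DESeq2 called 1 gene, Rpl30-ps9. Ifit3, which rose in YUMM2.1, stood at 4.25, 0.625 and 1.19 CPM in CT26 controls and 0.645, 1.48 and 3.34 CPM at 2 h, a difference in log2 response of 2.49 (95% confidence interval 0.87 to 4.12, unadjusted p = 0.00313). The difference was 1.36 for Igtp (0.54 to 2.18), 0.60 for Irf1 (-0.12 to 1.31) and 0.35 for Gbp7 (standard error 0.47). All 23 genes had the larger fitted response in YUMM2.1, the line in which they were selected, and so did 13 of the 20 genes selected in CT26.

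**Figure D5:**
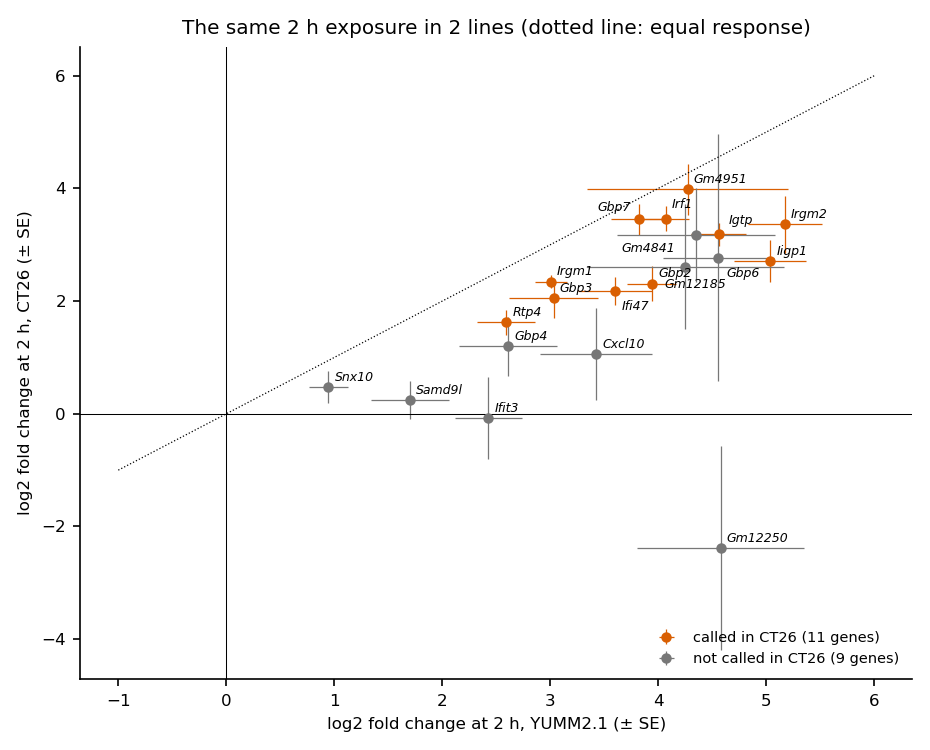
Log2 fold change at 2 h of IFNγ in naive YUMM2.1 (x axis) and naive CT26 cells (y axis) for 20 genes called at 2 h in YUMM2.1 and tested in both lines, with standard errors as lines and a dotted line of equal response. Genes called in CT26 are orange (11) and the others grey (9), and all 20 points lie below the dotted line. Gm12250, the lowest point, had 0, 2 and 0 counts in the CT26 controls and 0 in all 3 libraries at 2 h.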

How the data were processed

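Libraries of both lines were made by 3′ digital gene expression. The authors quantified reads with Salmon 0.13.1 (submitters' processing notes, which also name mm10), and the deposited values are counts per gene for each library, used as deposited. How unique molecular identifiers were counted is not given in the sources used here. The authors discarded outlier libraries without naming them in those sources, so all libraries were kept. Groups follow the sample labels. Counts were tested with edgeR 4.0.16 (R 4.3.3; filterByExpr, TMM, quasi-likelihood) in a fit of the 45 YUMM2.1 libraries, in a fit of the 45 CT26 libraries, or in a joint fit of all 90 for the line difference, with Benjamini-Hochberg adjustment over all genes tested and a threshold of 0.05. CPM are counts per 1000000 counts of the library. The library totals used for CPM and for ratios of counts per total are those of the genes that passed the filter, scaled by TMM. Intervals of ratios are exact binomial and cover counting error only. Alternatives included DESeq2 1.42.0. Tests were checked on simulated data.

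Genes named were those called at 2 h, the called members of each list or otherwise up to 3 of its most expressed members, the 5 with the lowest p not called, and the 10 with the lowest adjusted p between 24 h and 2 h. Other members were named after their values were seen. 1 gene is not reported here. The comparison, members and lists were chosen with earlier results of these data known.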

Additional observations from a re-analysis of the deposited data

Results flagged for a closer look

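The 24 h response of naive YUMM2.1 cells differed from their 2 h response in 54 genes, tested directly as 24 h against 2 h (53 higher and 1, Irf1, lower). It is listed because the effect of the same treatment differed between its time points.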

How the results depend on the processing

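Among the 2 h calls, 16 genes stayed called in all 14 alternatives and Gm12250 in the 13 in which it was tested (with only the 2 groups fitted it did not pass the filter), while Gm12185, Gm4951, Insl6, Samd9l, Snx10 and Tut4 each lost the call in 4 to 9 of them. Calls at 2 h numbered 41 (37 higher, 4 lower, 22 shared with the 23) against the mean of the controls of all 4 weeks, where Cd274, Parp14, Trim21, Dtx3l and Psmb10 passed, and 55 (46 higher, 9 lower, 22 shared) without the filter on low counts. DESeq2 called 1 gene lower. In CT26, no filter gave 47 (34 higher, 13 lower) and DESeq2 1 lower. For the line difference, no filter gave 15 (7 higher, 8 lower) and DESeq2 gave 1 (lower). Between 24 h and 2 h, the genes called lower numbered 4 with DESeq2, 3 with library totals as the scaling, 12 with no filter, 2 with only the groups compared, and 3 without 2 h replicate 2 or 24 h replicate 2. Leaving out 1 library at a time gave 18 to 23 calls at 2 h, 43 to 53 between 24 h and 2 h (40 to 50 higher, 1 to 3 lower), 17 to 19 in CT26 and 0 to 0 for the line difference. The number of lists with a called member, 6, was 9 against the mean of all controls, 7 without the filter and 6 in the other alternatives. The cause of these shifts was not tested. No value changed direction in a called result.

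Replicate numbers did not pair the libraries evenly: deviations of same-numbered control and 2 h libraries correlated at 0.0533, 0.169 and -0.0964. Control replicate 3 correlated with 2 h replicate 1 at 0.23. Same-numbered 24 h and 2 h libraries correlated at -0.217, -0.223 and -0.21. For 24 h replicates 1, 2 and 3 with 2 h replicates 2, 3 and 1 it was 0.215, 0.24 and 0.202. Whether libraries with different numbers shared a batch was not tested. With the replicate block, 24 genes were called at 2 h (23 shared, plus Gm11808), 52 between 24 h and 2 h, 20 in CT26 and 0 for the line difference. At this depth, changes in the lowest of 3 expression tiers were detectable only when large.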
